A study of Mus musculus with 10 samples.

Results

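Mouse embryonic stem cells of a J1 line labelled as stably expressing Prdm14 (line JP-23, called PRDM14 below) were compared with the wild-type line J1 across all genes on the array. The comparison uses 4 of the 10 arrays of the series, 2 for PRDM14 and 2 for J1, chosen by their titles, and 23707 genes were tested. Both lines were grown without feeder cells, in GMEM (a minimal essential medium) with fetal calf serum, glutamine, nonessential amino acids, mercaptoethanol and leukaemia inhibitory factor (LIF). The other groups are PRDM14_DNMT3B (line JP-23+3b-3, labelled as stably expressing Prdm14 and Dnmt3b1, 2 arrays), Dnmt3b_KO (line 8bb, Dnmt3b-/-, 2 arrays), Dnmt1_KO (line 36, Dnmt1-/-, 1 array) and TKO (line 19-1, Dnmt1-/-Dnmt3a-/-Dnmt3b-/-, 1 array). Each group is 1 line, and what promoter drives the transgenes is not stated in the labels. Replicate arrays are not stated to come from separate cultures, and p-values here therefore cover only array-to-array spread, possibly a technical one. Per the series' design text, the arrays were run to see how loss of DNA methylation after PRDM14 overexpression alters expression.

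PRDM14 is a zinc finger protein with a PR domain that is needed for the specification of primordial germ cells, the precursors of eggs and sperm. In mouse embryonic stem cells it is known to repress the de novo methyltransferase gene Dnmt3b and genes of fibroblast growth factor (FGF) signalling, and it binds DNA together with the co-repressor CBFA2T2. Stem cells in serum and LIF carry more DNA methylation and more transcripts of the primed epiblast than cells in the naive state, the state of the inner cell mass of the early embryo.

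A level below is the log2 intensity of the gene's probe minus the 75th percentile of its array. A difference is PRDM14 minus J1 in log2 units, given ± its standard error (SE), and a gene rose or fell where limma's Benjamini-Hochberg adjusted p was under 0.05. On this test 9395 genes (39.6% of those tested) changed, 4969 higher (21.0%) and 4426 lower (18.7%). All 9395 had both arrays of one line beyond both arrays of the other, but so had 7399 of the 14312 genes that did not pass. Past 2-fold, 2106 genes (8.88%) were higher and 1851 (7.81%) lower, and 114 higher and 78 lower genes lay beyond 16-fold. The median difference over all genes was -0.027 and the median SE 0.14. Among genes that were not well above background on either J1 array but were on both PRDM14 arrays, 629 of 938 rose. Among those above background on both J1 arrays and neither PRDM14 array, 263 of 283 fell. Both sets were picked by detection on the same arrays that are compared, which fixes the direction in advance. These counts are therefore a description and say nothing of direction. For genes in these sets the fold change is a lower bound and is written as at least that many fold. With 2 arrays against 2, an exact permutation test of a single gene cannot go below p = 0.333. Calls of single genes therefore rest on limma's spread. It joins the gene's own spread over all groups with 2 arrays (4 degrees of freedom) to a prior across genes (1.729 degrees of freedom). Where leaving out 1 array moved the number of a list's genes that passed by over 1.5 times, the number without that array is given. Some lists are also set beside PRDM14_DNMT3B against Dnmt3b_KO. There 48.2% of all genes that rose passed in the same direction and 5.94% in the opposite one. For all genes that fell these shares were 48.2% and 5.47%.

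**Figure D1:**
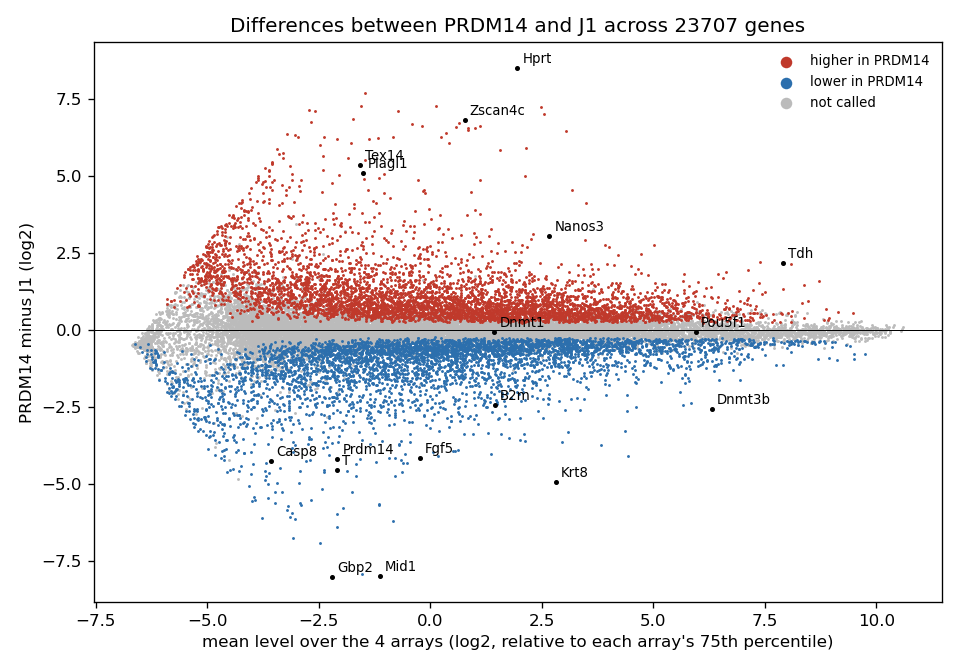
Difference PRDM14 minus J1 (y axis, log2 units) against the mean level over the 4 arrays (x axis, log2 intensity minus the array's 75th percentile) for the 23707 genes tested, each point a gene. The 4969 genes that rose and the 4426 that fell are coloured, and the largest differences lie at middle and low levels while the brightest genes lie near 0.

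The probe for Prdm14 itself was not raised in the line labelled as overexpressing it. Its level was -4.32 and -4.02 in the line labelled PRDM14, against -0.08 and 0.09 in J1, a difference of -4.18 ± 0.12 (limma adjusted p = 2.59e-05). The probe lies on mm9 chromosome 1 from 13103555 to 13103614 on the minus strand and starts at base 2487 of its transcript, per the scanner files. It was also low in the second line labelled as expressing Prdm14, at -6.35 and -6.42 in PRDM14_DNMT3B, against 1.18 and 1.15 in Dnmt3b_KO. The labels do not say whether this probe detects the transgene, so overexpression itself was not measured, and every direction below is that of the line labelled PRDM14.

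Dnmt3b, the methyltransferase that PRDM14 is known to repress, fell by 2.56 ± 0.08 (limma adjusted p = 2.95e-05). Its levels were 5.0 and 5.05 in the line labelled PRDM14, against 7.60 and 7.57 in J1. Its 3 probes, on mm9 chromosome 2 between 153512098 and 153513462, gave differences of -2.82, -2.85 and -2.56, so they were low on both PRDM14 arrays alike. Dnmt3l, its catalytically inactive cofactor, fell by 0.88 ± 0.09 (limma adjusted p = 0.000847). The maintenance methyltransferase Dnmt1 had a difference of -0.05 ± 0.15 (limma adjusted p = 0.824) and its recruiting factor Uhrf1 of -0.18 ± 0.08 (limma adjusted p = 0.133), and neither passed. Dnmt3a, the other de novo enzyme, rose by 0.38 ± 0.10 (limma adjusted p = 0.0251), with an adjusted p of 0.0781, 0.116 and 0.103 without PRDM14 replicate 1, PRDM14 replicate 2 and J1 replicate 2, and of 0.0505 without either Dnmt3b_KO array. Dppa3, which shields methylation marks in the early embryo, rose by 1.09 ± 0.14 (limma adjusted p = 0.00198). Trdmt1, another gene of the list, rose by 0.59 ± 0.12 (limma adjusted p = 0.0104). In PRDM14_DNMT3B against Dnmt3b_KO, Dnmt3a and Trdmt1 passed in the opposite direction, and 1 gene that rose passed in the same direction. Of 11 DNA methylation enzymes and cofactors tested, 3 rose, 2 fell and 6 did not pass, with a median difference of 0.09. The 5 that passed became 3 without PRDM14 replicate 2.

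Among enzymes that remove methylation, Tet1, the main 5-methylcytosine dioxygenase of stem cells, stood at 5.77 and 5.81 in the line labelled PRDM14, against 4.96 and 4.91 in J1. It rose by 0.86 ± 0.08 (limma adjusted p = 0.000542), with both PRDM14 arrays above both J1 arrays. Tet2 had a difference of 0.23 ± 0.16 (limma adjusted p = 0.301) and Tet3 of -0.43 ± 0.22 (limma adjusted p = 0.183), and neither passed. The base excision repair endonuclease Apex1 rose by 1.3 ± 0.08 (limma adjusted p = 0.000169) and the cytidine deaminase Apobec1 rose by 1.20 ± 0.10 (limma adjusted p = 0.000479), while the thymine DNA glycosylase Tdg fell by 0.58 ± 0.09 (limma adjusted p = 0.00504). Gadd45g, a stress protein linked to demethylation, fell by 1.14 ± 0.09 (limma adjusted p = 0.000348). Of 21 genes of TET oxidation and base excision repair tested, 7 rose, 3 fell and 11 did not pass, with a median difference of 0.23, and of those that rose 1 lies on chromosome 8 and 2, Apex1 among them, on chromosome 14.

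Among PRDM14's known partners and co-factors, Cbfa2t3, which lies on chromosome 8 and is a paralogue of the co-repressor Cbfa2t2, had levels of -1.72 and -1.70 in the line labelled PRDM14, against -3.59 and -3.92 in J1, and it rose by 2.05 ± 0.13 (limma adjusted p = 0.000158). Tfap2c and Prdm1, which act with PRDM14 in germ cell specification, had differences of 1.46 ± 0.08 (limma adjusted p = 0.000129) and 1.08 ± 0.19 (limma adjusted p = 0.00732), and both rose. Of 11 partners tested, Prdm14 included, 4 rose, 1 fell and 6 did not pass, with a median difference of 0.29, and the Polycomb subunits Eed and Jarid2 had differences of 0.29 ± 0.12 and 0.03 ± 0.10, neither of which passed.

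**Figure D2:**
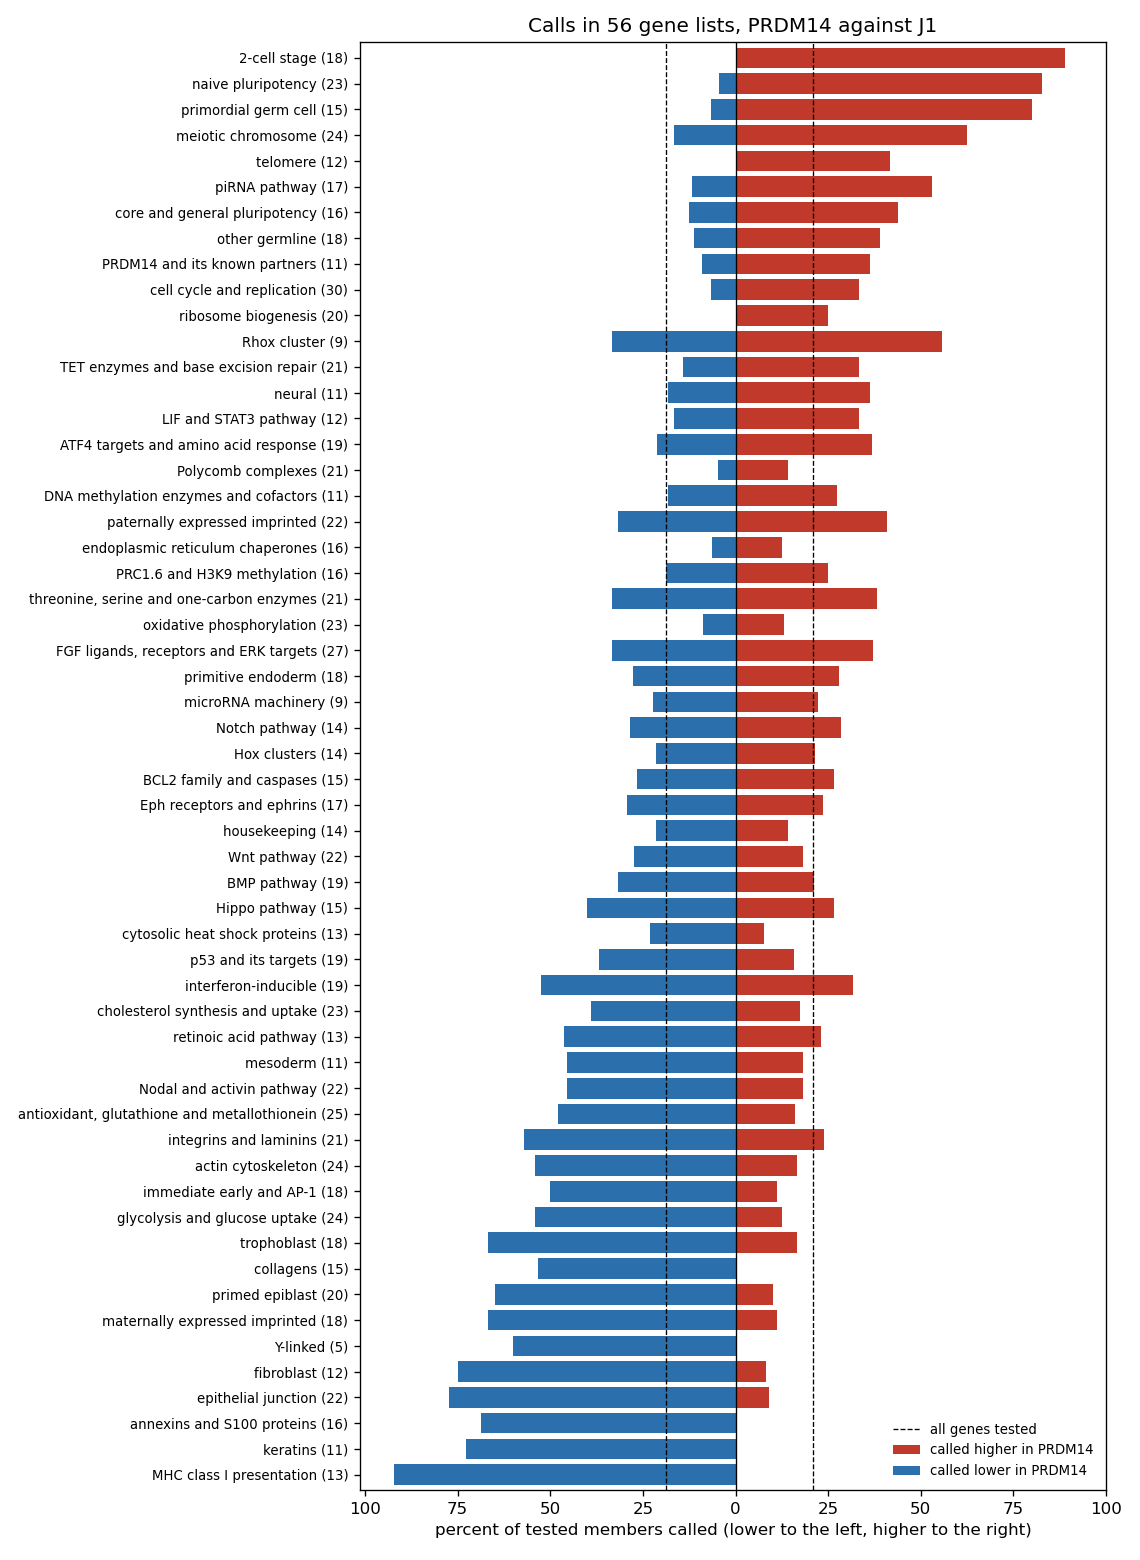
Share of tested members that rose or fell in each of 56 gene lists for PRDM14 against J1 (x axis, percent of members, lower to the left and higher to the right; lists down the page, number tested in brackets; dashed lines, all genes tested). Over all genes tested 21.0% rose and 18.7% fell, and the 2-cell and naive pluripotency lists show the largest shares of higher members while the MHC and epithelial junction lists show the largest shares of lower ones.

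The lines differ in features other than the labelled transgene. Hprt, the purine salvage enzyme, had levels of 6.06 and 6.35 in the line labelled PRDM14, against -2.35 and -2.26 in J1, a 364-fold difference. Its level was between 5.81 and 6.56 in all other lines as well, so J1 alone was low. The Y-linked genes Ddx3y and Eif2s3y were lower, with differences of -4.32 and -3.37. PRDM14_DNMT3B had levels of -6.10 and -6.31 for Ddx3y and -4.42 and -5.11 for Eif2s3y, while the lines not labelled as expressing Prdm14 had levels of at least 1.29 for Ddx3y. Of 5 Y-linked genes tested, 0 rose and 3 fell. On chromosome 8 the median difference of 713 genes above background on all 4 arrays was 0.48, and 407 of them (57.1%) rose while 59 (8.27%) fell. The shift ran along the whole chromosome, with medians of 0.32 to 0.58 in its 7 windows of 20 Mb. PRDM14_DNMT3B lay 0.42 above J1 there, against -0.01 in Dnmt3b_KO, -0.19 in Dnmt1_KO and 0.17 in TKO. TKO, which is not labelled as expressing Prdm14, lay 0.29 to 0.41 above J1 in the windows from 20 to 100 Mb. Its windows from 100 to 140 Mb lay at -0.16 and -0.15, and that from 0 to 20 Mb at 0.08. On chromosome 14 the windows from 40 to 60 Mb and from 60 to 80 Mb were 0.79 and 0.72 above J1, and there every other line lay above J1 too, by 0.39 to 0.89. The outermost windows of chromosome 14, from 0 to 20 Mb and from 100 to 120 Mb, with 36 and 24 genes, went the other way at -0.52 and -0.55, and every other line lay below J1 there as well. The X chromosome had a median of -0.17, and all other chromosomes lay between -0.09 and 0.03. Copy number was not measured, and its part in these values was not tested. Genes on chromosomes 8 and 14 are named as such below.

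**Figure D3:**
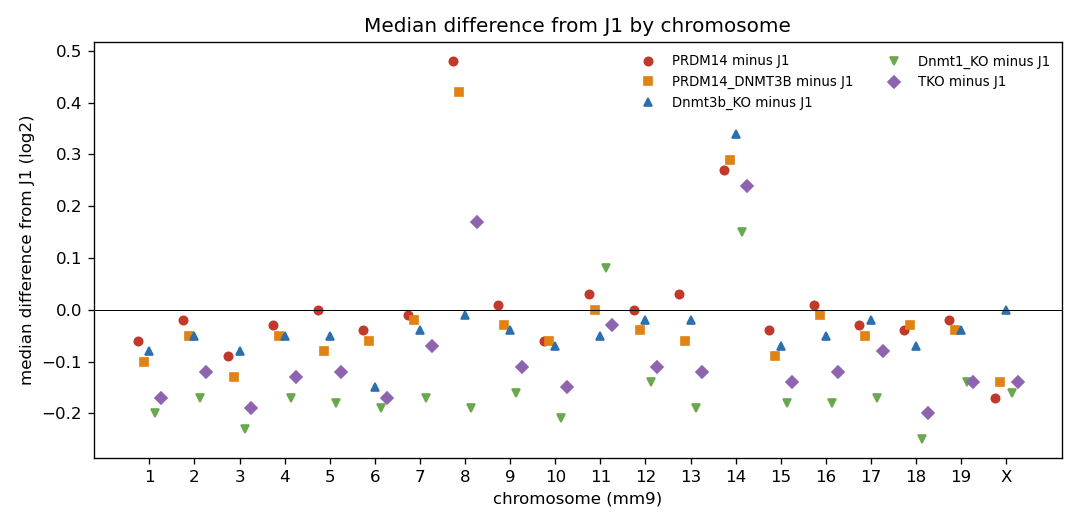
Median difference from J1 (y axis, log2 units) of named genes above background on all 4 arrays, by chromosome (x axis), with a point for each line. PRDM14 and PRDM14_DNMT3B stand at 0.48 and 0.42 on chromosome 8, where Dnmt3b_KO stands at -0.01 and TKO at 0.17. All lines lie above J1 on chromosome 14.

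PRDM14 arrays lay alone on a slide each, and J1 arrays lay on 2 other slides, and for PRDM14 against J1 the slide cannot be told apart from the line. Replicate arrays correlated at r = 0.9976 in PRDM14 and 0.9949 in J1 over 24281 probes above background on all 10 arrays of the series, across probes that are not independent. All 10 stem cell markers, among them Pou5f1, Sox2, Zfp42 and Esrrb, were above background on all 4 arrays, and their summed level was 10.28 and 10.37 in PRDM14, against 10.14 and 10.00 in J1. Of 6 fibroblast markers tested 4 were lower and 0 higher, with summed levels of 0.37 and 0.44 in PRDM14, against 2.01 and 1.86 in J1. All 5 trophoblast markers tested were lower, with summed levels of -0.06 and -0.05 in PRDM14, against 1.69 and 1.59 in J1, and Plac1 was above background on none of the 4 arrays. The 4 neural markers summed to 0.83 and 0.63 in PRDM14, against 2.73 and 2.50 in J1. Of 6 primitive endoderm markers tested 1 was higher and 1 lower, with summed levels of -1.32 and -1.26 in PRDM14, against -0.90 and -0.81 in J1, and Sox17 and Pdgfra were not above background on any of the 4 arrays. Of 2 mesoderm markers tested 1 was lower, with summed levels of 3.44 and 3.52 in PRDM14, against 4.44 and 3.95 in J1. The part of these other cell types in the results below was not tested. In bulk samples, fewer cells of a type and less RNA per cell cannot be told apart.

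The 15 named genes that rose most include Hprt, described above, and 4 Zscan4 genes. Zscan4c and Zscan4a, zinc finger genes of the 2-cell stage, rose 113-fold and 105-fold, and Zscan4f and Zscan4e rose 98.7-fold and 89.1-fold, although a Zscan4 probe may read several near-identical copies. Crispld2, a secreted protein encoded on chromosome 8, had levels of 3.54 and 3.53 in the line labelled PRDM14, against -1.15 and -1.50 in J1, and it rose by 4.86 ± 0.14 (limma adjusted p = 2.39e-05). Zfp951, a zinc finger gene, had levels of 1.56 and 1.42 in the line labelled PRDM14, against -3.44 and -3.70 in J1, and it rose by 5.06 ± 0.12 (limma adjusted p = 1.91e-05). Both stood apart from J1 on both arrays. Crispld2 stood at 1.37 and 1.33 in PRDM14_DNMT3B, -1.06 and -1.25 in Dnmt3b_KO, -1.58 in Dnmt1_KO and -1.61 in TKO. For Zfp951 J1 was the lowest line. Its levels were -0.94 and -1.08 in PRDM14_DNMT3B, -2.07 and -2.08 in Dnmt3b_KO, 0.61 in Dnmt1_KO and 0.42 in TKO. A further 28 genes without an informative symbol rank among these 15.

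The genes that fell most were of several kinds. Mid1, a microtubule-associated ubiquitin ligase of the X chromosome, had levels of -4.83 and -5.41 in the line labelled PRDM14, against 2.89 and 2.84 in J1, and it was at least 175.0-fold lower (limma adjusted p = 2.81e-05). Slc39a8, a zinc and manganese importer, had levels of -5.35 and -5.64 in the line labelled PRDM14, against 2.32 and 2.54 in J1, and it was at least 130.0-fold lower (limma adjusted p = 1.78e-05). Both probes were not above background on either PRDM14 array and were bright on both J1 arrays. In both, J1 lay above every other line as well. Mid1 stood at -2.51 and -2.6 in Dnmt3b_KO, -2.13 in Dnmt1_KO and -3.87 in TKO. Slc39a8 stood at -0.42 and -0.19 in Dnmt3b_KO, -0.07 in Dnmt1_KO and -1.05 in TKO. Glod5, of a glyoxalase family, had levels of -4.02 and -3.82 in the line labelled PRDM14, against 2.27 and 2.28 in J1, and it fell by 6.19 ± 0.17 (limma adjusted p = 2.15e-05). Fndc3c1 fell by 5.69 ± 0.16 (limma adjusted p = 2.28e-05), and both genes lie on the X chromosome. Cxcl12, the chemokine that guides germ and blood stem cells, was at least 38.7-fold lower (limma adjusted p = 2.22e-05), with levels of -4.29 and -4.50 on the arrays labelled PRDM14, against 0.85 and 0.91 on the J1 arrays. Penk, the precursor of enkephalins, fell by 5.65 ± 0.29 (limma adjusted p = 9.62e-05), and Thbs1, a secreted matrix glycoprotein, fell by 4.72 ± 0.41 (limma adjusted p = 0.000482). Galnt3, an enzyme that starts O-glycosylation, was at least 44.9-fold lower (limma adjusted p = 5.62e-05), and Prss23, a secreted protease, at least 51.3-fold lower (limma adjusted p = 0.000113). Only 2 genes without an informative symbol rank among these 15.

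Among the 8 brightest genes, Tuba1b, an alpha tubulin, had levels of 10.45 and 10.40 in the line labelled PRDM14, against 10.49 and 10.17 in J1, and Rps14, a ribosomal protein, of 10.26 and 10.33 on the arrays labelled PRDM14, against 10.38 and 10.11 on the J1 arrays. In both the 2 lines overlapped. None of the 8 passed limma's test, and their differences ran from -0.06 to 0.17. No spot was saturated. Of 14 genes commonly used as references, Hprt included, 2 rose, 3 fell and 9 did not pass, with a median difference of -0.12, and Actb had a difference of -0.06 ± 0.14 (limma adjusted p = 0.765) and Gapdh of -0.27 ± 0.14 (limma adjusted p = 0.191).

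Among core pluripotency factors Nanog rose, while Pou5f1 and Sox2 did not pass. Pou5f1 had levels of 5.94 and 5.93 in the line labelled PRDM14, against 5.98 and 5.99 in J1. Sox2 had levels of 3.72 and 3.74 on the arrays labelled PRDM14, against 3.54 and 3.79 on the J1 arrays. Nanog rose by 0.57 ± 0.09 (limma adjusted p = 0.0046), with levels of 6.41 and 6.59 in the line labelled PRDM14, against 5.91 and 5.95 in J1, but it was lower in PRDM14_DNMT3B than in Dnmt3b_KO, with a difference of -0.39. Of 16 core and general pluripotency genes tested, 7 rose, 2 fell and 7 did not pass, with a median difference of 0.28. The 9 that passed became 5 without J1 replicate 1. Dppa2, which primes promoters of early embryonic genes, rose by 1.26 ± 0.08 (limma adjusted p = 0.000192), and the cell cycle factor Mybl2 rose by 1.05 ± 0.15 (limma adjusted p = 0.00306). Lin28b, an RNA-binding protein that blocks let-7 microRNAs and rises as cells leave the naive state, fell by 1.41 ± 0.09 (limma adjusted p = 0.000164), with both PRDM14 arrays below both J1 arrays.

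Of 23 genes of naive pluripotency tested, 19 rose, 1 fell and 3 did not pass, with a median difference of 0.99. Esrrb, an orphan nuclear receptor of the naive network, had levels of 6.93 and 7.06 in the line labelled PRDM14, against 5.62 and 5.55 in J1, and it rose by 1.41 ± 0.09 (limma adjusted p = 0.000158). Klf2, a Krüppel-like factor of that network on chromosome 8, had levels of 6.78 and 6.78 in the line labelled PRDM14, against 5.26 and 5.14 in J1, and it rose by 1.57 ± 0.08 (limma adjusted p = 0.000103). Both were above J1 on both arrays, and both were higher in PRDM14_DNMT3B than in Dnmt3b_KO. Tcl1, a coactivator of AKT, rose by 1.78 ± 0.11 (limma adjusted p = 0.000161), and Fbxo15, a target of Pou5f1 and Sox2, rose by 1.83 ± 0.12 (limma adjusted p = 0.000172). Jam2, a junction adhesion molecule of naive cells, rose by 1.32 ± 0.08 (limma adjusted p = 0.00016). Zfp42, better known as Rex1 and also on chromosome 8, rose by 0.97 ± 0.08 (limma adjusted p = 0.000456). Dppa5a and Tfcp2l1 were the brightest that did not pass, with differences of 0.00 ± 0.14 and 0.45 ± 0.19. Of those that rose, 2 lie on chromosome 8 and 1 on chromosome 14. Of the 19, 11 passed in the same direction in PRDM14_DNMT3B against Dnmt3b_KO and 2 in the other. Over all genes that rose, 48.2% passed in the same direction there and 5.94% in the other.

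Genes of the primed epiblast were mostly lower. Of 20 tested, 2 rose, 13 fell and 5 did not pass, with a median difference of -0.81. Sox11, a transcription factor of neural progenitors and the epiblast, had levels of -3.59 and -3.75 in the line labelled PRDM14, against 0.38 and 0.64 in J1, and it fell by 4.18 ± 0.12 (limma adjusted p = 2.36e-05). Fgf5, the growth factor of the epiblast, had levels of -2.47 and -2.13 in the line labelled PRDM14, against 1.74 and 1.95 in J1, and it fell by 4.15 ± 0.15 (limma adjusted p = 3.98e-05). Both were low on both PRDM14 arrays. Pou3f1, a POU factor that acts with Pou5f1 as cells leave the naive state, fell by 3.63 ± 0.12 (limma adjusted p = 3.44e-05), and Pim2, a serine kinase gene on the X chromosome, fell by 3.92 ± 0.15 (limma adjusted p = 4.3e-05). Grhl2, which opens epithelial enhancers in the epiblast, fell by 2.72 ± 0.09 (limma adjusted p = 3.59e-05). Nodal and Lef1, 2 signalling genes of the list, did not pass, with differences of -0.07 ± 0.11 and 0.31 ± 0.12. Of the 13 that fell, 8 passed in the same direction in PRDM14_DNMT3B against Dnmt3b_KO and 0 in the other.

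FGF signalling through ERK drives exit from the naive state, and its members moved in both directions. Of 27 ligands, receptors, transducers and targets tested, 10 rose, 9 fell and 8 did not pass, with a median difference of -0.21, and 2 of those that rose lie on chromosome 8 and 2 on chromosome 14. The 19 that passed became 13 without PRDM14 replicate 1 and 12 without PRDM14 replicate 2. Among ligands, Fgf4, the main one made by stem cells, stood at 6.23 and 6.28 in the line labelled PRDM14, against 5.62 and 5.47 in J1, and it rose by 0.71 ± 0.09 (limma adjusted p = 0.00164), while Fgf8 fell by 1.33 ± 0.12 (limma adjusted p = 0.000571). Among receptors, Fgfr4 rose by 1.02 ± 0.12 (limma adjusted p = 0.00171). Among feedback genes and targets, Spry1, an inhibitor of the pathway, fell by 1.39 ± 0.17 (limma adjusted p = 0.00187), Phlda1 fell by 2.16 ± 0.09 (limma adjusted p = 5.81e-05), and Etv4, an ETS factor induced by FGF, rose by 0.57 ± 0.08 (limma adjusted p = 0.0027). The adaptors Ptpn11 and Grb2 had differences of -0.27 ± 0.10 and -0.25 ± 0.15 and did not pass. Of the 10 that rose, 3 passed in the same direction in PRDM14_DNMT3B against Dnmt3b_KO and 2 in the other. Of the 9 that fell, 6 passed in the same direction there and 0 in the other.

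Immediate early genes are induced by growth factors and stress within minutes. Of 18 tested, 2 rose, 9 fell and 7 did not pass, with a median difference of -0.64. In PRDM14_DNMT3B against Dnmt3b_KO 6 were higher and 7 lower, with a median of 0.14. Egr1, a zinc finger factor of the ERK response, had levels of -0.99 and -1.09 in the line labelled PRDM14, against 1.42 and 1.51 in J1, and it fell by 2.51 ± 0.10 (limma adjusted p = 4.38e-05). Jun, a subunit of AP-1, had levels of 0.62 and 0.48 in the line labelled PRDM14, against 2.59 and 2.46 in J1, and it fell by 1.97 ± 0.10 (limma adjusted p = 0.000102), and the stress factor Atf3 fell by 2.99 ± 0.13 (limma adjusted p = 6.63e-05). PRDM14 was the line with the lowest Egr1 level of all 6, since PRDM14_DNMT3B stood at 2.17 and 2.25 and Dnmt3b_KO at 1.79 and 1.94. The 2 that rose, Ier2 and Jund, both lie on chromosome 8.

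Nodal and activin signalling had more lower than higher members. Of 22 ligands, inhibitors and targets tested, 4 rose, 10 fell and 8 did not pass, with a median difference of -0.47. The 14 that passed became 9 without J1 replicate 1 or PRDM14 replicate 1. Lefty1, a secreted inhibitor and target of Nodal, had levels of -0.67 and -0.60 in the line labelled PRDM14, against 1.91 and 1.89 in J1, and it fell by 2.53 ± 0.08 (limma adjusted p = 3.08e-05), and Lefty2 fell by 1.52 ± 0.09 (limma adjusted p = 0.000155). Fst, which binds activin, had levels of -1.34 and -1.28 in the line labelled PRDM14, against 2.46 and 2.67 in J1, and it fell by 3.88 ± 0.16 (limma adjusted p = 5.43e-05). The activin subunit gene Inhba was at least 1.72-fold lower (limma adjusted p = 3.52e-05). Gdf3, a related ligand of stem cells, went the other way and rose by 0.73 ± 0.08 (limma adjusted p = 0.00141). The transducer Smad4 had a difference of -0.19 ± 0.11 and did not pass.

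LIF signalling keeps stem cells undifferentiated through STAT3. Of 12 members tested, 4 rose, 2 fell and 6 did not pass, with a median difference of 0.12. Klf4, a target of STAT3, stood at 3.48 and 3.59 in the line labelled PRDM14, against 2.46 and 2.63 in J1, and it rose by 1.00 ± 0.11 (limma adjusted p = 0.00116). The receptor subunit Il6st rose by 0.60 ± 0.08 (limma adjusted p = 0.00245) and the kinase Jak1 rose by 0.58 ± 0.09 (limma adjusted p = 0.00381), while Jak2 fell by 0.65 ± 0.10 (limma adjusted p = 0.00473). The feedback inhibitor Socs3 had a difference of 0.13 ± 0.08 and did not pass, and its arrays did not overlap either. On the arrays not shared, Il6st was lower in PRDM14_DNMT3B than in Dnmt3b_KO.

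Of 19 BMP pathway genes tested, 4 rose, 6 fell and 9 did not pass, with a median difference of -0.23. Bmp4, the ligand that induces germ cell precursors, had levels of 5.54 and 5.55 in the line labelled PRDM14, against 3.42 and 3.52 in J1, and it rose by 2.08 ± 0.09 (limma adjusted p = 5.8e-05), and it lies on chromosome 14 where all lines were above J1. Id3, a target of BMP that blocks differentiation factors, rose by 1.45 ± 0.17 (limma adjusted p = 0.00154), and the inhibitor Smad6 rose by 0.99 ± 0.10 (limma adjusted p = 0.000845). Bmp8b fell by 1.79 ± 0.12 (limma adjusted p = 0.0002), the receptor Bmpr2 fell by 1.02 ± 0.13 (limma adjusted p = 0.00189) and Id2 fell by 0.71 ± 0.08 (limma adjusted p = 0.00106). The 3 Id genes named therefore differ, since Id1 had a difference of 0.26 ± 0.16 and did not pass.

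Of 22 Wnt pathway genes and targets tested, 4 rose, 6 fell and 12 did not pass, with a median difference of -0.19. The 10 that passed became 6 without PRDM14 replicate 1 or PRDM14 replicate 2. T (Brachyury), the target that marks the primitive streak, had levels of -4.40 and -4.33 in the line labelled PRDM14, against 0.12 and 0.24 in J1, and it was at least 23.3-fold lower (limma adjusted p = 4.77e-05). The ligand Wnt3, which acts with it, had levels of -4.07 and -4.45 in the line labelled PRDM14, against -1.11 and -1.06 in J1, and it fell by 3.17 ± 0.15 (limma adjusted p = 7.26e-05). Both were low in TKO as well, at -4.91 and -4.64, but not in Dnmt3b_KO or Dnmt1_KO. Rnf43, a ubiquitin ligase that removes Wnt receptors, was at least 2.88-fold lower (limma adjusted p = 0.000396). The inhibitor Dkk1 was at least 1.9-fold higher (limma adjusted p = 0.00275), and the receptor Fzd5 rose by 0.76 ± 0.13 (limma adjusted p = 0.00544). Ctnnb1, the transducer beta-catenin, had a difference of -0.06 ± 0.11 and did not pass.

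The Notch list was split, and of 14 genes tested, 4 rose, 4 fell and 6 did not pass, with a median difference of -0.12. The target Hey1 rose by 1.26 ± 0.09 (limma adjusted p = 0.00024) and the ligand Jag1 rose by 0.67 ± 0.08 (limma adjusted p = 0.00189), while the receptor Notch3 fell by 1.81 ± 0.11 (limma adjusted p = 0.000172) and the glycosyltransferase Lfng fell by 1.69 ± 0.09 (limma adjusted p = 9.02e-05). Of 15 Hippo genes tested, 4 rose, 6 fell and 5 did not pass, with a median difference of -0.17. Ccn1, a secreted target of the YAP coactivator, had levels of 0.51 and 0.29 in the line labelled PRDM14, against 2.44 and 2.49 in J1, and it fell by 2.07 ± 0.11 (limma adjusted p = 9.45e-05), and Amotl2 fell by 1.74 ± 0.11 (limma adjusted p = 0.000154). Wwtr1, the YAP paralogue also called TAZ, fell by 1.76 ± 0.14 (limma adjusted p = 0.000326), while Yap1 had a difference of -0.14 ± 0.12 and did not pass. Lats2 and Ajuba rose by 1.09 and 0.63 and lie on chromosome 14. Of the 4 Hippo genes that rose, 0 passed in the same direction in PRDM14_DNMT3B against Dnmt3b_KO and 2 in the other. Of the 6 that fell, 4 passed in the same direction there and 1 in the other.

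Of 13 retinoic acid genes tested, 3 rose, 6 fell and 4 did not pass, with a median difference of -0.62. Cyp26a1, which degrades retinoic acid and is a direct target of it, had levels of -6.12 and -6.61 in the line labelled PRDM14, against -0.90 and -0.94 in J1, and it was at least 12.7-fold lower (limma adjusted p = 3e-05). Rdh10, which makes the precursor retinal, had levels of -3.22 and -3.52 in the line labelled PRDM14, against -1.11 and -0.99 in J1, and it fell by 2.32 ± 0.14 (limma adjusted p = 0.000134). Dhrs3, which converts retinal back, fell by 2.22 ± 0.11 (limma adjusted p = 8.36e-05). All 3 were below J1 on both PRDM14 arrays, so genes of synthesis and of removal were lower together. The binding protein Crabp2 fell by 0.97 ± 0.08 (limma adjusted p = 0.000467).

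Germline genes are silenced by promoter methylation in somatic cells, and PRDM14 acts in the lineage that reactivates them. Of 15 genes of primordial germ cells tested, 12 rose, 1 fell and 2 did not pass, with a median difference of 1.09. Nanos3, an RNA-binding protein that keeps germ cells alive, had levels of 4.22 and 4.17 in the line labelled PRDM14, against 1.16 and 1.15 in J1, and it rose by 3.04 ± 0.09 (limma adjusted p = 2.75e-05), and it lies on chromosome 8. Kit, the receptor of stem cell factor, had levels of 2.51 and 2.77 in the line labelled PRDM14, against 0.01 and 0.15 in J1, and it rose by 2.56 ± 0.13 (limma adjusted p = 8.74e-05). Both were above J1 on both arrays, and Kit was as high in PRDM14_DNMT3B, at 2.62 and 2.72, against 0.38 and 0.56 in Dnmt3b_KO. Dnd1, which guards germ cell transcripts from microRNAs, rose by 1.32 ± 0.09 (limma adjusted p = 0.000242). The only member that fell was Ifitm1, a membrane protein of early germ cells that interferon also induces, which fell by 1.45 ± 0.10 (limma adjusted p = 0.000252). Of the 12 that rose, 11 passed in the same direction in PRDM14_DNMT3B against Dnmt3b_KO and 0 in the other. For 6 of the 12 J1 lay below every other array, against 29.9% of all genes that rose. Both lines labelled as expressing Prdm14 lay above all other lines for 7, against 44.8%, and a gene may be in both counts.

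The promoters of 4 genes that rose are shown because their families are known to be held silent by methylation or by repressors that read short motifs. Each is the 200 bases before the transcription start, 5′ to 3′, from RefSeq on GRCm38.p6, with CpG dinucleotides in capitals. Fkbp6 lies at chr5:135350045-135350244 on the minus strand, Slc25a31 at chr3:40708671-40708870, Tex14 at chr11:87404865-87405064 and Zscan4c at chr7:11005545-11005744, all 3 on the plus strand.
Fkbp6: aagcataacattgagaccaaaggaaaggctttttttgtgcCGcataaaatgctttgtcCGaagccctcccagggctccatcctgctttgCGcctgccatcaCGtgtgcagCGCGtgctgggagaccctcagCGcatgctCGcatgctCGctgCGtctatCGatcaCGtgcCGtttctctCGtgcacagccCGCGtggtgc
Slc25a31: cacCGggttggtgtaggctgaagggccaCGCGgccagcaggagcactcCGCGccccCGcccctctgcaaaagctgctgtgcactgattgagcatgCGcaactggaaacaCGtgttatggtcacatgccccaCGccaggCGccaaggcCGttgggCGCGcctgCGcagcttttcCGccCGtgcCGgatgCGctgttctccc
Tex14: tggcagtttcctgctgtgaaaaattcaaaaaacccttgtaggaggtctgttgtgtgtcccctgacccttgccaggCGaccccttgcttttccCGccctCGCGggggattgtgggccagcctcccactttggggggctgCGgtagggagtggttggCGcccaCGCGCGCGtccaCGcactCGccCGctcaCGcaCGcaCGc
Zscan4c: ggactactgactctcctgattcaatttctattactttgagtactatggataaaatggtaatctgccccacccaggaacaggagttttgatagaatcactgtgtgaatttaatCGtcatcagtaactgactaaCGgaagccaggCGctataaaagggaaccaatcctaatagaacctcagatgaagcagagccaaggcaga
Fkbp6 holds 16 CpG in this stretch, Slc25a31 18, Tex14 16 and Zscan4c 3, so the first 3 are CpG-rich and the last is not. The E-box CACGTG, read by MYC-family and MGA complexes, starts 101 and 37 bases before the start of Fkbp6 and 93 before that of Slc25a31. The motif TCCCGC, read by E2F6, starts 111 bases before the start of Tex14 and is in none of the other 3. The same stretch of Dazl, another germline gene, was also searched and holds 18 CpG and neither motif. Fkbp6 has 2 promoter windows, of which the first is shown. Both strands were searched, and the motifs share no bases with each other. A match is a description of the letters and says nothing of binding, which was not measured.

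Fkbp6, a co-chaperone of the piRNA pathway, had levels of 0.27 and 0.27 in the line labelled PRDM14, against -3.54 and -3.83 in J1, and it rose by 3.95 ± 0.16 (limma adjusted p = 5.21e-05). It was as low in PRDM14_DNMT3B, at -3.51 and -3.52, as in Dnmt3b_KO, at -3.29 and -3.70, and higher in Dnmt1_KO and TKO, at 1.54 and 1.95. Piwil2, a PIWI protein that binds piRNAs, had levels of -0.42 and -0.14 in the line labelled PRDM14, against -3.92 and -3.57 in J1, and it rose by 3.47 ± 0.19 (limma adjusted p = 0.000106), and it lies on chromosome 14. Unlike Fkbp6, Piwil2 stayed high in PRDM14_DNMT3B, at -0.62 and -0.55. Gtsf1, a PIWI cofactor, rose by 1.41 ± 0.11 (limma adjusted p = 0.000294), and Pld6, a mitochondrial nuclease of piRNA synthesis, rose by 1.23 ± 0.10 (limma adjusted p = 0.000371). Gpat2, a mitochondrial protein of that step, rose by 1.00 ± 0.09 (limma adjusted p = 0.000565), but was lower in PRDM14_DNMT3B than in Dnmt3b_KO. Tdrd7, a Tudor protein of germ granules, and Exd1 moved down, with differences of -2.12 ± 0.26 (limma adjusted p = 0.00169) and -1.29 ± 0.13 (limma adjusted p = 0.000804). Of 17 piRNA pathway genes tested, 9 rose, 2 fell and 6 did not pass, with a median difference of 1.00, and 2 of those that rose lie on chromosome 14. For 6 of the 9 that rose J1 lay below every other array, against 29.9% of all genes that rose. Both lines labelled as expressing Prdm14 lay above all other lines for 2, against 44.8%.

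Of 24 meiotic genes tested, 15 rose, 4 fell and 5 did not pass, with a median difference of 0.82, or 0.68 with dim genes at their bound, and of those that rose 2 lie on chromosome 8 and 1 on chromosome 14. Tex14, which holds the bridges between dividing germ cells open, had levels of 1.03 and 1.15 in the line labelled PRDM14, against -4.26 and -4.27 in J1, and it was at least 36.2-fold higher (limma adjusted p = 1.54e-05). Smc1b, the meiotic cohesin subunit, had levels of -0.60 and -0.55 in the line labelled PRDM14, against -3.30 and -3.10 in J1, and it rose by 2.63 ± 0.11 (limma adjusted p = 4.89e-05). Hormad1, an axis protein of meiotic chromosomes, had levels of -0.53 and -0.37 in the line labelled PRDM14, against -3.05 and -3.05 in J1, and it rose by 2.60 ± 0.12 (limma adjusted p = 6.91e-05). All 3 were above J1 on both PRDM14 arrays, and Tex14 was also high in PRDM14_DNMT3B, at 1.63 and 1.80. Tex14 stood at -1.1 and -1.11 in Dnmt3b_KO, -1.06 in Dnmt1_KO and -0.61 in TKO, so J1 was its lowest line. The cohesin subunit Stag3 rose by 1.40 ± 0.09 (limma adjusted p = 0.000174) and the synaptonemal protein Syce1 rose by 1.5 ± 0.11 (limma adjusted p = 0.000241). Sycp3, another synaptonemal protein, went the other way and fell by 0.96 ± 0.11 (limma adjusted p = 0.00132). Of the 15 that rose, 8 passed in the same direction in PRDM14_DNMT3B against Dnmt3b_KO and 0 in the other. Over all genes that rose, 48.2% passed in the same direction there. For 7 of the 15 J1 lay below every other array, against 29.9% of all genes that rose. Both lines labelled as expressing Prdm14 lay above all other lines for 2, against 44.8%.

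Of 18 other germline genes tested, 7 rose, 2 fell and 9 did not pass, with a median difference of 0.38, or 0.25 with dim genes at their bound. For 1 of the 7 that rose J1 lay below every other array, against 29.9% of all genes that rose. Slc25a31, the adenine nucleotide carrier of testis, had levels of -2.30 and -2.35 in the line labelled PRDM14, against -4.88 and -4.72 in J1, and it was at least 3.69-fold higher (limma adjusted p = 4.62e-05). Tex19.1, a retrotransposon control factor on chromosome 11, rose by 0.88 ± 0.09 (limma adjusted p = 0.000933). Zp3, a coat protein of the egg, had levels of -2.70 and -3.04 in the line labelled PRDM14, against 1.39 and 1.19 in J1, and it fell by 4.15 ± 0.14 (limma adjusted p = 3.44e-05), so an egg gene stood among those that fell. Of the X-linked Rhox homeobox cluster, 9 were tested, and 5 rose, 3 fell and 1 did not pass, with a median difference of 1.52, or 1.46 with dim genes at their bound. The 8 that passed became 5 without PRDM14 replicate 1 or PRDM14 replicate 2. Rhox9 had levels of 5.25 and 5.07 in the line labelled PRDM14, against 3.06 and 3.06 in J1, and it rose by 2.10 ± 0.10 (limma adjusted p = 6.93e-05), and Rhox6 had levels of 4.36 and 4.07 in the line labelled PRDM14, against 2.53 and 2.34 in J1, and it rose by 1.78 ± 0.16 (limma adjusted p = 0.000543). In PRDM14_DNMT3B the levels of Rhox9 were 2.01 and 1.92, against 1.82 and 1.71 in Dnmt3b_KO. Those of Rhox6 were 0.61 and 0.31 in PRDM14_DNMT3B, against 0.93 and 0.77 in Dnmt3b_KO. Rhox5 moved down and fell by 0.83 ± 0.12 (limma adjusted p = 0.00316). Of the 5 Rhox genes that rose, 2 passed in the same direction in PRDM14_DNMT3B against Dnmt3b_KO and 0 in the other. Of the 3 that fell, 0 passed in the same direction there and 2 in the other.

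Genes of the 2-cell embryo, when the zygotic genome is first read, were higher almost throughout. Of 18 genes tested, 16 rose, 0 fell and 2 did not pass, with a median difference of 5.09, or 3.17 with dim genes at their bound, and all 16 that rose also rose in PRDM14_DNMT3B against Dnmt3b_KO. Tmem92, a membrane protein gene, had levels of 0.86 and 1.08 in the line labelled PRDM14, against -6.35 and -5.92 in J1, and it was at least 36.2-fold higher (limma adjusted p = 3.09e-05). Tcstv3, a 2-cell gene, had levels of 0.74 and 0.69 in the line labelled PRDM14, against -6.36 and -5.73 in J1, and it was at least 30.5-fold higher (limma adjusted p = 4.24e-05). Usp17lc, of a deubiquitinase family, had levels of -0.94 and -1.17 in the line labelled PRDM14, against -5.81 and -6.05 in J1, and it was at least 8.89-fold higher (limma adjusted p = 2.15e-05). All 3 were not above background on either J1 array and clear of it on both PRDM14 arrays, and near-identical Usp17l copies may share probe signal. Usp17la was at least 20.2-fold higher (limma adjusted p = 2.36e-05) by its brightest probe, while the probe kept when all 10 arrays had to be above background lay lower, with a difference of -0.43. Levels of Zscan4c outside the comparison were 4.05 and 4.06 in PRDM14_DNMT3B, -2.71 and -3.09 in Dnmt3b_KO, 2.00 in Dnmt1_KO and 1.18 in TKO. Zfp352, another gene of that stage, had a difference of -0.07 ± 0.08 and did not pass.

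Imprinted genes are expressed from 1 parental copy, set by methylation laid down in the germline. Of 18 maternally expressed ones tested, 2 rose, 12 fell and 4 did not pass, with a median difference of -1.09. Grb10, a growth inhibitor, had levels of -1.55 and -1.65 in the line labelled PRDM14, against 1.53 and 1.62 in J1, and it fell by 3.18 ± 0.10 (limma adjusted p = 3.09e-05). Cdkn1c, a cell cycle inhibitor, had levels of 2.32 and 2.33 in the line labelled PRDM14, against 4.50 and 4.60 in J1, and it fell by 2.23 ± 0.08 (limma adjusted p = 4.12e-05). Both were low on both PRDM14 arrays. Mirg, a non-coding RNA of the Dlk1-Meg3 region, fell by 1.39 ± 0.09 (limma adjusted p = 0.000189). H19, the non-coding RNA beside Igf2, went the other way, with levels of 1.25 and 1.08 in the line labelled PRDM14, against -2.58 and -2.14 in J1, and rose by 3.53 ± 0.16 (limma adjusted p = 6.91e-05). Of the 12 that fell, 10 passed in the same direction in PRDM14_DNMT3B against Dnmt3b_KO and 0 in the other.

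Of 22 paternally expressed genes tested, 9 rose, 7 fell and 6 did not pass, with a median difference of 0.10. Plagl1, a zinc finger gene, had levels of 0.99 and 1.10 in the line labelled PRDM14, against -4.25 and -3.88 in J1, and it rose by 5.11 ± 0.20 (limma adjusted p = 4.4e-05), and Peg13, a non-coding RNA, rose by 4.50 ± 0.59 (limma adjusted p = 0.00224). Both were above background on 1 of the J1 arrays. In both J1 was the line apart, since all 8 other arrays lay above both J1 arrays. Peg10, a retrotransposon-derived gene, had levels of -2.92 and -2.76 in the line labelled PRDM14, against 0.04 and 0.00 in J1, and it fell by 2.86 ± 0.10 (limma adjusted p = 3.75e-05), and its neighbour Sgce fell by 2.74 ± 0.17 (limma adjusted p = 0.00015). Dlk1, a Notch-like ligand, fell by 1.71 ± 0.15 (limma adjusted p = 0.000457), so it and Mirg of the same region moved alike. Mest and Snrpn had differences of 0.05 ± 0.11 and 0.15 ± 0.09 and did not pass.

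Markers of the first lineages were mostly lower or split. Of 18 trophoblast genes tested, 3 rose, 12 fell and 3 did not pass, with a median difference of -1.72, or -1.71 with dim genes at their bound. Cited1, a coactivator of placenta, had levels of 0.07 and 0.02 in the line labelled PRDM14, against 2.76 and 2.65 in J1, and it fell by 2.66 ± 0.09 (limma adjusted p = 3.13e-05), and Plet1, a surface protein, fell by 2.91 ± 0.10 (limma adjusted p = 3.52e-05). Eomes, a T-box factor of trophoblast stem cells, fell by 1.64 ± 0.09 (limma adjusted p = 9.68e-05), and Cdx2, which specifies that lineage, fell by 1.20 ± 0.17 (limma adjusted p = 0.00307). Hand1, a factor of trophoblast giant cells, went the other way, with levels of -1.24 and -1.38 in the line labelled PRDM14, against -3.44 and -3.10 in J1, and rose by 1.96 ± 0.19 (limma adjusted p = 0.000755). Of the 12 that fell, 9 passed in the same direction in PRDM14_DNMT3B against Dnmt3b_KO and 0 in the other.

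Primitive endoderm genes were split, and of 18 tested, 5 rose, 5 fell and 8 did not pass, with a median difference of -0.30, or -0.29 with dim genes at their bound. Its adaptor gene Dab2 had levels of -6.34 and -6.80 in the line labelled PRDM14, against -2.09 and -1.90 in J1, and it was at least 6.01-fold lower (limma adjusted p = 0.000209), while Sox7, a factor of that lineage on chromosome 14, rose by 0.84 ± 0.11 (limma adjusted p = 0.00225). Sparc, a matrix protein, rose by 0.52 ± 0.09 (limma adjusted p = 0.00741). Of 11 mesoderm genes tested, 2 rose, 5 fell and 4 did not pass, with a median difference of -0.52. Snai1, a repressor of epithelial genes, fell by 1.5 ± 0.14 (limma adjusted p = 0.000682), and Mesp2, a factor of somites, rose by 1.21 ± 0.20 (limma adjusted p = 0.00572). Of 11 neural genes tested, 4 rose, 2 fell and 5 did not pass, with a median difference of -0.02. Nes, the intermediate filament nestin, had levels of 0.29 and 0.06 in the line labelled PRDM14, against 2.62 and 2.38 in J1, and it fell by 2.32 ± 0.13 (limma adjusted p = 0.000113), and Tubb3, a neuronal tubulin on chromosome 8, rose by 1.32 ± 0.13 (limma adjusted p = 0.000857). Of 14 Hox genes tested, 3 rose, 3 fell and 8 did not pass, with a median difference of -0.24, at levels mostly near background.

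Genes of epithelial junctions were mostly lower. Of 22 tested, 2 rose, 17 fell and 3 did not pass, with a median difference of -1.30. Cldn6, a tight junction claudin, had levels of -2.56 and -2.60 in the line labelled PRDM14, against 1.45 and 1.42 in J1, and it fell by 4.01 ± 0.15 (limma adjusted p = 4.12e-05), and Cldn7 had levels of 0.28 and 0.16 in the line labelled PRDM14, against 3.94 and 3.65 in J1, and it fell by 3.58 ± 0.16 (limma adjusted p = 6.9e-05). Dsp, the desmosome protein desmoplakin, had levels of -1.60 and -1.52 in the line labelled PRDM14, against 1.02 and 1.08 in J1, and it fell by 2.60 ± 0.08 (limma adjusted p = 2.81e-05). Both arrays of PRDM14 were below both of J1 for each. Epcam, an adhesion molecule, fell by 2.14 ± 0.10 (limma adjusted p = 7.97e-05). Esrp1 and Esrp2, splicing factors of epithelia, had differences of 0.27 ± 0.11 and -0.04 ± 0.29 and did not pass. Of the 17 that fell, 15 passed in the same direction in PRDM14_DNMT3B against Dnmt3b_KO and 0 in the other.

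Of 11 keratins tested, 0 rose, 8 fell and 3 did not pass, with a median difference of -1.63. The 8 that passed became 5 without PRDM14 replicate 2. Krt8, a keratin of simple epithelia, had levels of 0.28 and 0.44 in the line labelled PRDM14, against 5.27 and 5.29 in J1, and it fell by 4.92 ± 0.11 (limma adjusted p = 1.78e-05). Its partner Krt18 had levels of 2.44 and 2.31 on the arrays labelled PRDM14, against 6.53 and 6.41 on the J1 arrays, and it fell by 4.09 ± 0.12 (limma adjusted p = 2.59e-05). Krt19 fell by 4.01 ± 0.10 (limma adjusted p = 1.94e-05) and Krt17 fell by 1.63 ± 0.08 (limma adjusted p = 7.8e-05). All 4 were low on both PRDM14 arrays, and in TKO Krt8 was at 3.45, between the other lines. Of 15 collagens tested, 0 rose, 8 fell and 7 did not pass, with a median difference of -1.03. Col1a1, a chain of fibrillar collagen, had levels of -4.38 and -4.30 in the line labelled PRDM14, against -2.05 and -1.91 in J1, and it fell by 2.36 ± 0.09 (limma adjusted p = 4.24e-05), and Col18a1, a basement membrane collagen, fell by 1.03 ± 0.08 (limma adjusted p = 0.000358). Of all lines, Dnmt3b_KO had the highest Col1a1 level, at 1.73 and 1.73.

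Integrins and laminins link cells to the matrix, and they moved in both directions. Of 21 tested, 5 rose, 12 fell and 4 did not pass, with a median difference of -0.57. Lama5, a laminin chain of the embryonic basement membrane, had levels of 2.65 and 2.53 in the line labelled PRDM14, against 4.50 and 4.50 in J1, and it fell by 1.91 ± 0.08 (limma adjusted p = 5.43e-05). Itgb3, an integrin of the vitronectin receptor, had levels of -0.20 and -0.45 in the line labelled PRDM14, against -2.97 and -2.98 in J1, and it rose by 2.65 ± 0.14 (limma adjusted p = 9.49e-05), and Itga7, a laminin receptor, rose by 1.28 ± 0.11 (limma adjusted p = 0.000414). So a laminin was among those that fell while integrins stood on both sides, with Itga3 and Itga8 lower. Itga1 rose by 1.97 ± 0.09 (limma adjusted p = 7.18e-05) but was lower in PRDM14_DNMT3B than in Dnmt3b_KO.

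Of 24 genes of the actin cytoskeleton tested, 4 rose, 13 fell and 7 did not pass, with a median difference of -0.45. Tagln, the actin-binding protein transgelin, had levels of 2.67 and 2.79 in the line labelled PRDM14, against 6.03 and 6.01 in J1, and it fell by 3.29 ± 0.10 (limma adjusted p = 2.8e-05), and Cnn1, calponin, had levels of 0.36 and 0.28 in the line labelled PRDM14, against 3.25 and 3.15 in J1, and it fell by 2.88 ± 0.09 (limma adjusted p = 3.08e-05). Csrp1, a LIM protein, fell by 1.71 ± 0.09 (limma adjusted p = 9.45e-05), and Cald1, caldesmon, fell by 2.58 ± 0.13 (limma adjusted p = 9.4e-05). These were low on both PRDM14 arrays. Acta2, smooth muscle actin, went the other way, with levels of 2.42 and 2.52 in the line labelled PRDM14, against 1.01 and 1.00 in J1, and rose by 1.46 ± 0.08 (limma adjusted p = 0.00011), but with a difference of -4.33 it was lower in PRDM14_DNMT3B than in Dnmt3b_KO, at -0.33 and -0.39, against 3.96 and 3.99. All 13 that fell also fell in PRDM14_DNMT3B against Dnmt3b_KO. In that comparison, however, 0 of the 24 were higher and 17 lower, with a median of -1.08. Of the 4 that rose in PRDM14, 3 were among those lower there, namely Acta2, Myl9 and Myh9.

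Of 16 annexins and S100 calcium-binding proteins tested, 0 rose, 11 fell and 5 did not pass, with a median difference of -1.16. Anxa3 had levels of -1.90 and -1.85 in the line labelled PRDM14, against 2.25 and 2.19 in J1, and it fell by 4.09 ± 0.08 (limma adjusted p = 1.54e-05), and Anxa5, which binds phosphatidylserine, had levels of -0.87 and -0.85 in the line labelled PRDM14, against 1.44 and 1.42 in J1, and it fell by 2.29 ± 0.10 (limma adjusted p = 5.71e-05). S100a4 fell by 2.42 ± 0.09 (limma adjusted p = 4.14e-05). All 3 were below J1 on both arrays, while S100a6 and Anxa6 had differences of -0.37 ± 0.24 and 0.19 ± 0.12 and did not pass. Of 12 fibroblast genes tested, 1 rose, 9 fell and 2 did not pass, with a median difference of -1.74, or -1.17 with dim genes at their bound, and Dcn, the matrix proteoglycan decorin, had levels of -5.41 and -4.66 in the line labelled PRDM14, against -0.98 and -1.22 in J1, and it was at least 11.2-fold lower (limma adjusted p = 0.0006). Of 17 Eph receptors and ephrins tested, 4 rose, 5 fell and 8 did not pass, with a median difference of -0.14. The receptor Epha1 had levels of 0.19 and 0.07 in the line labelled PRDM14, against 3.04 and 2.89 in J1, and it fell by 2.84 ± 0.09 (limma adjusted p = 3.09e-05), and the ligand Efna5 fell by 2.92 ± 0.15 (limma adjusted p = 9.63e-05), while the ligand Efnb3 rose by 1.36 ± 0.11 (limma adjusted p = 0.000386).

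Of 24 genes of glycolysis and glucose uptake tested, 3 rose, 13 fell and 8 did not pass, with a median difference of -0.42. In PRDM14_DNMT3B against Dnmt3b_KO 3 were higher and 6 lower, with a median of -0.06. Tpi1, triosephosphate isomerase, had levels of 5.27 and 5.21 in the line labelled PRDM14, against 6.17 and 6.05 in J1, and it fell by 0.87 ± 0.08 (limma adjusted p = 0.000691), and Slc2a1, the glucose transporter GLUT1, fell by 0.64 ± 0.08 (limma adjusted p = 0.00224). Slc16a3, a lactate exporter, fell by 1.14 ± 0.10 (limma adjusted p = 0.000578), while Pfkp, the platelet phosphofructokinase, had levels of 2.53 and 2.63 in the line labelled PRDM14, against 0.64 and 0.83 in J1, and it rose by 1.84 ± 0.12 (limma adjusted p = 0.000213). PRDM14 was the lowest line for Tpi1, with PRDM14_DNMT3B at 6.23 and 6.22 and Dnmt3b_KO at 6.69 and 6.66. Of 23 genes of oxidative phosphorylation tested, 3 rose, 2 fell and 18 did not pass, with a median difference of 0.02. Neither the 3 that rose nor the 2 that fell passed in either direction in PRDM14_DNMT3B against Dnmt3b_KO. The 5 that passed became 3 without Dnmt3b_KO replicate 1 or Dnmt3b_KO replicate 2 and 2 without J1 replicate 1 or PRDM14 replicate 2 and 0 without J1 replicate 2 or PRDM14 replicate 1.

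Of 21 genes of threonine, glycine and one-carbon metabolism tested, 8 rose, 7 fell and 6 did not pass, with a median difference of 0.10. The 15 that passed became 8 without PRDM14 replicate 1. Mtr, methionine synthase, had levels of 1.48 and 1.54 in the line labelled PRDM14, against 0.36 and 0.32 in J1, and it rose by 1.17 ± 0.08 (limma adjusted p = 0.000186). Both PRDM14 arrays were above both J1 arrays. Shmt1, which makes glycine from serine, rose by 0.69 ± 0.08 (limma adjusted p = 0.00116), and Tdh, which degrades threonine and lies on chromosome 14, rose by 2.19 ± 0.14 (limma adjusted p = 0.000197). Mthfd1l, a mitochondrial folate enzyme, fell by 0.53 ± 0.09 (limma adjusted p = 0.00507). Mat2b, a subunit of the enzyme that makes the methyl donor, had a difference of 0.18 ± 0.08 and did not pass.

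Of 23 genes of cholesterol synthesis and uptake tested, 4 rose, 9 fell and 10 did not pass, with a median difference of -0.28. The 13 that passed became 6 without PRDM14 replicate 1 and 7 without PRDM14 replicate 2. Hmgcs1, at an early step of synthesis, had levels of 5.20 and 5.19 in the line labelled PRDM14, against 5.81 and 5.74 in J1, and it fell by 0.58 ± 0.08 (limma adjusted p = 0.00249), and Hsd17b7, at a late one, fell by 0.88 ± 0.08 (limma adjusted p = 0.000656). Fdft1, squalene synthase, on chromosome 14, rose by 0.93 ± 0.11 (limma adjusted p = 0.00131), and Mvd, on chromosome 8, rose by 0.82 ± 0.14 (limma adjusted p = 0.00617). In PRDM14_DNMT3B against Dnmt3b_KO 0 members were higher and 21 lower, with a median of -0.72, and Fdft1 was among those lower. Of the 9 that fell in PRDM14, 9 passed in the same direction in PRDM14_DNMT3B against Dnmt3b_KO and 0 in the other.

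Of 19 genes of the amino acid response driven by ATF4 tested, 7 rose, 4 fell and 8 did not pass, with a median difference of 0.19. Atf4 itself fell by 0.76 ± 0.10 (limma adjusted p = 0.00191), while its known targets Trib3 and Slc7a5 rose by 0.48 and 0.72, the second from chromosome 8. Cth, which makes cysteine, fell by 1.29 ± 0.09 (limma adjusted p = 0.000236), and Cbs, the step before it, rose by 0.77 ± 0.11 (limma adjusted p = 0.00341). Of 16 chaperones of the endoplasmic reticulum tested, 2 rose, 1 fell and 13 did not pass, with a median difference of 0.16, and Calr, calreticulin, on chromosome 8, rose by 0.79 ± 0.12 (limma adjusted p = 0.00406). Of 13 heat shock genes tested, 1 rose, 3 fell and 9 did not pass, with a median difference of -0.13, and Hspb1, a small heat shock protein, fell by 1.13 ± 0.08 (limma adjusted p = 0.000251). The 4 that passed became 2 without Dnmt3b_KO replicate 1 or Dnmt3b_KO replicate 2 or J1 replicate 1 or PRDM14 replicate 1.

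Antioxidant enzymes fell in larger number than they rose. Of 25 tested, 4 rose, 12 fell and 9 did not pass, with a median difference of -0.28. Gpx8, a peroxidase of the endoplasmic reticulum, had levels of -3.81 and -3.86 in the line labelled PRDM14, against 0.50 and 0.51 in J1, and it fell by 4.34 ± 0.14 (limma adjusted p = 3.22e-05). Gstm1, a glutathione transferase, had levels of 0.69 and 0.46 in the line labelled PRDM14, against 2.64 and 2.62 in J1, and it fell by 2.05 ± 0.11 (limma adjusted p = 0.0001), and Gpx2 fell by 1.61 ± 0.09 (limma adjusted p = 0.000128). All 3 were low on both PRDM14 arrays and in PRDM14_DNMT3B, at -3.97 and -3.58 for Gpx8. Sod2, the mitochondrial superoxide dismutase, rose by 0.94 ± 0.10 (limma adjusted p = 0.000887), and Nqo1, a target of NRF2 on chromosome 8, rose by 0.94 ± 0.09 (limma adjusted p = 0.000647).

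Of 19 targets of p53 tested, 3 rose, 7 fell and 9 did not pass, with a median difference of -0.27. The 10 that passed became 6 without PRDM14 replicate 2. Perp, a desmosome protein induced by p53, had levels of 3.72 and 3.78 in the line labelled PRDM14, against 5.48 and 5.40 in J1, and it fell by 1.69 ± 0.08 (limma adjusted p = 8.15e-05), and Ccng1, cyclin G1, had levels of 2.51 and 2.54 in the line labelled PRDM14, against 3.67 and 3.62 in J1, and it fell by 1.12 ± 0.09 (limma adjusted p = 0.000317). Plk2, a polo-like kinase, fell by 1.61 ± 0.14 (limma adjusted p = 0.000461). Each was lowest in PRDM14 among the lines except Perp, which was at 3.34 in TKO. On the unshared arrays 11 targets were higher in PRDM14_DNMT3B than in Dnmt3b_KO and 0 lower, and Perp and Plk2 were among them. Gdf15, a secreted stress factor on chromosome 8, rose by 2.10 ± 0.21 (limma adjusted p = 0.00087).

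Of 15 genes of the BCL2 and caspase families tested, 4 rose, 4 fell and 7 did not pass, with a median difference of -0.21. The 8 that passed became 5 without PRDM14 replicate 2. Casp8, the initiator caspase of death receptors, had levels of -5.57 and -5.84 in the line labelled PRDM14, against -1.62 and -1.26 in J1, and it was at least 8.84-fold lower (limma adjusted p = 4.85e-05). Bcl2, which blocks cell death, had levels of -2.30 and -2.81 in the line labelled PRDM14, against -0.34 and -0.56 in J1, and it fell by 2.11 ± 0.21 (limma adjusted p = 0.000806), and Bcl2l11, which promotes it, rose by 1.00 ± 0.08 (limma adjusted p = 0.000321). Mcl1 and Bcl2l1 had differences of -0.22 ± 0.08 and -0.23 ± 0.08 and did not pass.

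Genes of MHC class I presentation fell almost throughout. Of 13 tested, 0 rose, 12 fell and 1 did not pass, with a median difference of -2.10, or -1.24 with dim genes at their bound. H2-K1, a class I heavy chain, had levels of 0.18 and 0.25 in the line labelled PRDM14, against 2.34 and 2.30 in J1, and it fell by 2.10 ± 0.08 (limma adjusted p = 4.4e-05). B2m, the light chain shared by all class I molecules, had levels of 0.19 and 0.28 in the line labelled PRDM14, against 2.56 and 2.77 in J1, and it fell by 2.43 ± 0.12 (limma adjusted p = 7.97e-05). Tap2, a subunit of the peptide transporter, had levels of -2.74 and -2.81 in the line labelled PRDM14, against 0.22 and -0.07 in J1, and it fell by 2.85 ± 0.15 (limma adjusted p = 9.56e-05). All 3 were lower on both PRDM14 arrays, and near-identical H2 genes may share probe signal. Tap1, its partner, was at least 4.46-fold lower (limma adjusted p = 7.97e-05), and H2-D1 fell by 1.24 ± 0.09 (limma adjusted p = 0.000269). Psmb10, a subunit of the immunoproteasome, was the 1 that did not pass, with a difference of -0.27 ± 0.12 (limma adjusted p = 0.132). Of the 12 that fell, 11 passed in the same direction in PRDM14_DNMT3B against Dnmt3b_KO and 1 in the other.

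Genes induced by interferon were split. Of 19 tested, 6 rose, 10 fell and 3 did not pass, with a median difference of -0.76. Gbp2, a guanylate-binding protein, had levels of -5.61 and -6.79 in the line labelled PRDM14, against 1.72 and 1.88 in J1, and it was at least 83.6-fold lower (limma adjusted p = 6.58e-05), and Gbp2b was at least 29.6-fold lower (limma adjusted p = 1.54e-05). Irgm1, an immunity-related GTPase, had levels of -1.47 and -1.31 in the line labelled PRDM14, against 0.59 and 0.78 in J1, and it fell by 2.07 ± 0.12 (limma adjusted p = 0.000131), and Isg20, an exonuclease, fell by 2.42 ± 0.15 (limma adjusted p = 0.000148). Irf9, the factor that carries the type I interferon signal, went the other way from chromosome 14 and rose by 1.44 ± 0.09 (limma adjusted p = 0.000142), and Oas1a rose by 1.18 ± 0.09 (limma adjusted p = 0.00031). All 10 that fell also fell in PRDM14_DNMT3B against Dnmt3b_KO.

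Of 30 cell cycle genes tested, 10 rose, 2 fell and 18 did not pass, with a median difference of 0.24, or 0.23 with dim genes at their bound, and of those that rose 3 lie on chromosome 8 and 1 on chromosome 14. Ccnd2, cyclin D2, had levels of 1.75 and 1.66 in the line labelled PRDM14, against 0.03 and 0.23 in J1, and it rose by 1.57 ± 0.12 (limma adjusted p = 0.000288), and Ccnd3 had levels of 6.87 and 6.79 in the line labelled PRDM14, against 5.79 and 5.79 in J1, and it rose by 1.04 ± 0.09 (limma adjusted p = 0.00047). Ccnd1 was the D-type cyclin that moved down and fell by 0.72 ± 0.09 (limma adjusted p = 0.00152). Rb1, on chromosome 14, rose by 0.81 ± 0.08 (limma adjusted p = 0.000735), its paralogue Rbl1 fell by 1.13 ± 0.10 (limma adjusted p = 0.000509), and Rbl2, on chromosome 8, was at least 2.35-fold higher (limma adjusted p = 0.000213). The kinase Cdk4 had a difference of -0.03 ± 0.10 and did not pass. Of 20 ribosome biogenesis genes tested, 5 rose, 0 fell and 15 did not pass, with a median difference of 0.10, and Nolc1, a nucleolar chaperone, rose by 1.03 ± 0.11 (limma adjusted p = 0.00107). The 5 that passed became 2 without PRDM14 replicate 1 and 3 without PRDM14 replicate 2. Of 12 telomere genes tested, 5 rose, 0 fell and 7 did not pass, with a median difference of 0.32, and Tinf2, a shelterin subunit on chromosome 14, rose by 0.93 ± 0.10 (limma adjusted p = 0.00103). The 5 that passed became 3 without J1 replicate 1 or PRDM14 replicate 2.

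Of 21 Polycomb genes tested, 3 rose, 1 fell and 17 did not pass, with a median difference of 0.03. The 4 that passed became 2 without PRDM14 replicate 1 or PRDM14 replicate 2. Kdm2b, which recruits Polycomb to CpG islands, had levels of 5.68 and 5.94 in the line labelled PRDM14, against 4.70 and 4.91 in J1, and it rose by 1.01 ± 0.12 (limma adjusted p = 0.00168). Of 16 repressors of germline genes tested, among them the variant Polycomb complex PRC1.6 and the histone H3 lysine 9 methylation machinery, 4 rose, 3 fell and 9 did not pass, with a median difference of 0.18. The 7 that passed became 4 without J1 replicate 1 or J1 replicate 2 or PRDM14 replicate 1. E2f6, the subunit of PRC1.6 that binds DNA, had levels of 2.21 and 2.47 in the line labelled PRDM14, against 3.37 and 3.63 in J1, and it fell by 1.16 ± 0.15 (limma adjusted p = 0.00222), while its subunit L3mbtl2 rose by 1.07 ± 0.09 (limma adjusted p = 0.00047) and its E-box protein Max rose by 0.66 ± 0.08 (limma adjusted p = 0.00185). So subunits of the same complex moved in both directions. Trim28 and Ehmt2 had differences of -0.04 ± 0.09 and 0.23 ± 0.08 and did not pass. Of 9 microRNA processing genes tested, 2 rose, 2 fell and 5 did not pass, with a median difference of 0.05. The 4 that passed became 2 without PRDM14 replicate 1. Dicer1, the nuclease that makes microRNAs, had levels of 0.24 and 0.13 in the line labelled PRDM14, against 2.38 and 2.34 in J1, and it fell by 2.17 ± 0.09 (limma adjusted p = 5.8e-05), and it was low in PRDM14_DNMT3B too, at -0.03 and -0.11, against 1.66 and 1.52 in Dnmt3b_KO.

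**Figure D4:**
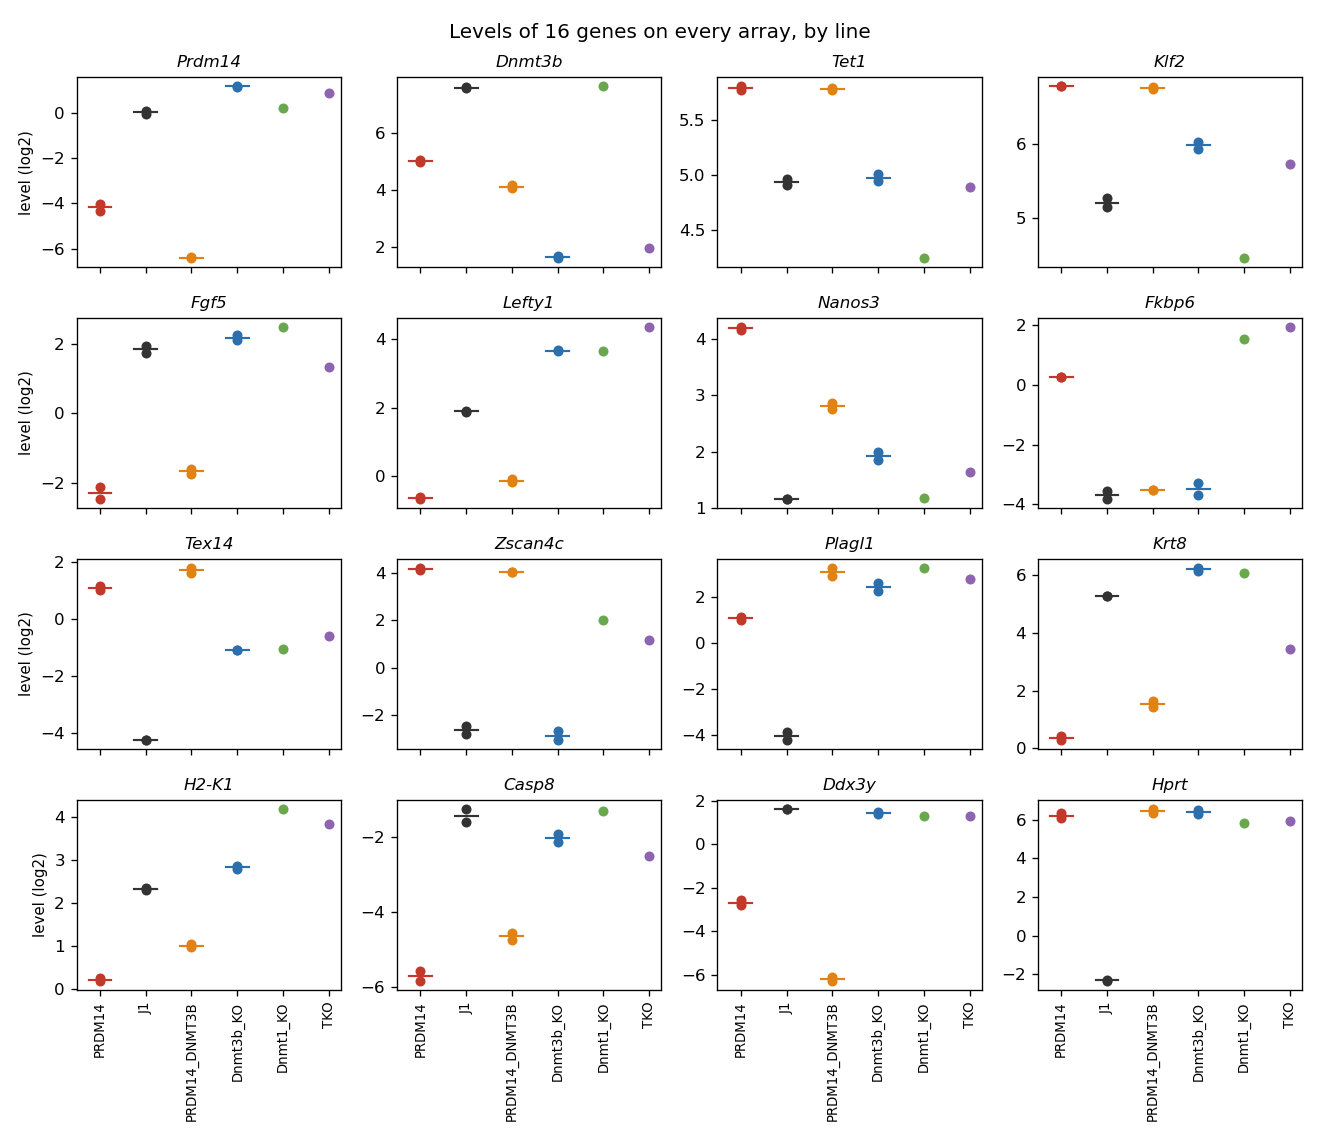
Level (y axis, log2 intensity minus the array's 75th percentile) of 16 genes on every array, by line (x axis), each point an array and each horizontal line the mean of 2 arrays. Dnmt3b, Krt8 and Fgf5 are lower and Zscan4c is higher in PRDM14 and PRDM14_DNMT3B than in J1, Dnmt3b is lowest in Dnmt3b_KO and TKO, Fkbp6 is high in PRDM14, Dnmt1_KO and TKO, and Hprt is low in J1 alone.

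A second comparison of a line labelled as expressing Prdm14 with one that is not, PRDM14_DNMT3B against Dnmt3b_KO, shares no array with PRDM14 against J1, though PRDM14_DNMT3B is named as a derivative of JP-23 and it also differs in Dnmt3b. In it 3852 genes (16.2%) were higher and 3424 (14.4%) lower. Of the 4969 genes that rose in PRDM14, 2394 (48.2%) passed in the same direction there and 295 (5.94%) in the opposite one. Of the 4426 that fell, 2132 (48.2%) passed in the same direction and 242 (5.47%) in the opposite one. These shared genes made up 62.1% and 62.3% of the second comparison's lists. Among genes beyond 8-fold the shares in the same direction were 84.5% of 251 higher and 89.3% of 196 lower genes. PRDM14_DNMT3B and Dnmt3b_KO lay together on slides 1 and 2, and the genes that rose in PRDM14 had a median difference of 0.43 within either slide, while those that fell had -0.40 and -0.44. Dnmt3b went opposite ways, at 4.09 and 4.17 in PRDM14_DNMT3B, against 1.62 and 1.69 in Dnmt3b_KO.

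**Figure D5:**
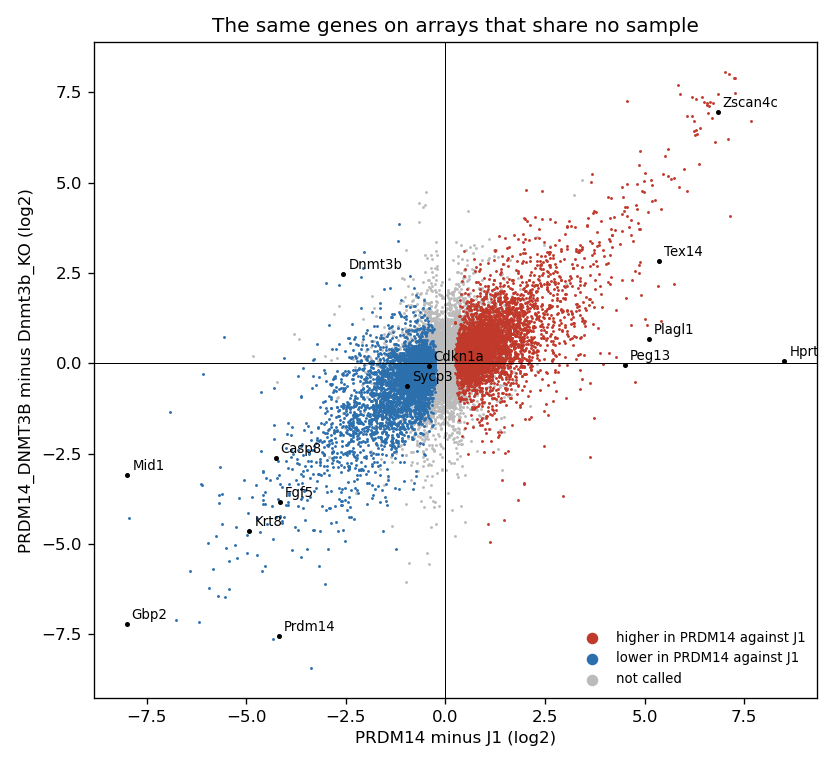
Difference PRDM14_DNMT3B minus Dnmt3b_KO (y axis, log2 units) against PRDM14 minus J1 (x axis, log2 units), each point a gene tested, with those that rose or fell in PRDM14 against J1 in colour. Of the genes that rose, 48.2% passed in the same direction on the y axis and 5.94% in the opposite one, and Hprt lies far to the right at 0.07 on the y axis.

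Levels on all arrays show which line stood apart. Of the 4969 genes that rose, 3427 (69%) were higher on both PRDM14 arrays than on all 6 arrays of lines not labelled as expressing Prdm14, and 2225 (44.8%) were so in PRDM14_DNMT3B as well. For 1484 (29.9%) J1 was instead below all 8 other arrays, as for Hprt and Plagl1. Of the 4426 genes that fell, 2954 (66.7%) were lower on both PRDM14 arrays than on those 6, 1869 (42.2%) in both lines labelled as expressing it, and 1538 (34.7%) had J1 above all 8 others. Over all genes tested, the corresponding shares were 21.8%, 11.3% and 7.24% for higher and 16.8%, 8.99% and 10.6% for lower. The sets overlap, since a gene may be beyond the other lines in both ways, and the calls and the positions share the PRDM14 and J1 arrays, so these shares are a description.

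Promoter windows of 300 bases, from 250 before to 50 after the start, were available from RefSeq on GRCm38.p6 for 80% of 14894 protein-coding genes tested. A count of CpG among genes that rose, fell or did not pass was void, because windows covered under 80% of the genes that rose or fell. For the germline lists 62 of 73 tested genes (84.9%) had a window. TCCCGC, searched on both strands, was in 45.2% of these and in 33.2% of all protein-coding genes tested with a window. CACGTG was in 25.8% and 9.77%, and GGTCTCTAA, the core of the motif known for PRDM14, in 0 of 62 and 0.243%. The lists hold genes chosen with earlier results known, so these shares describe them only. Of 13 MHC genes 11 had a window, with TCCCGC in 18.2% and CACGTG in 18.2%.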

How the data were processed

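Total RNA of 10 samples was labelled with Cy3 and hybridised singly to Agilent arrays with 59305 spots for 55681 probes. The deposited scanner files were made with Agilent Feature Extraction 10.7.3.1, per the file headers, and hold background-subtracted intensity values. The series' value table holds log2 values deposited by the authors. Its scale is log2 with an unstated normalization, its columns have a median of 4.243, and it differs by at most 0.246 from quantile-normalized signals of the same arrays, so it was used only as an alternative. Of the probes on an array 50.03% to 56.03% were above background and 0 were saturated, and the number of arrays limits precision. Per the submitters' processing notes limma was also used upstream.

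From the deposited intensities, each array's processed signal was log2 transformed and its 75th percentile subtracted. Outlier spots were dropped, 33113 probes were kept because all arrays of some group were above background, and the brightest probe stood for a gene (23707 genes, 7 dropped for missing values). Probes were named through RefSeq accessions or symbols, 15758 genes having a RefSeq symbol. limma 3.58.1 in R 4.3.3 was fitted over all 10 arrays, with 4 residual degrees of freedom and Benjamini-Hochberg adjusted p under 0.05 as the threshold. The method was checked on simulated data in which a small share of genes was changed. It called 3 of 66 genes changed by 0.5 log2 units (4.55%), 24 of 67 changed by 1 (35.8%) and 53 of 67 changed by 2 (79.1%). Of the unchanged genes 7 passed. A far larger share of genes passed in the real data, so these shares do not carry over to the real calls. A bound sets the brighter line's mean against the higher of the dim probe's signal and the lowest signal above background, per array. Replicate numbers follow slides 1 and 2 in J1, PRDM14_DNMT3B and Dnmt3b_KO, whose deviations from the group means correlated at r = 0.209 to 0.231 between same-numbered arrays. They follow no shared slide for PRDM14, which correlated with these groups at 0.099 to 0.149, so PRDM14 and J1 were taken as unpaired.

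The genes named are the 15 highest and 15 lowest that passed with the lines apart, in each of 56 lists the 5 higher and 5 lower with the smallest adjusted p and the 2 brightest that did not pass, a fixed set of methylation, pluripotency, sex and marker genes, and the 8 brightest genes. The comparison, its members and the lists were chosen with earlier results of these data known. Alternatives covered normalization, background correction, probe filters, the arrays fitted, slide or replicate as a block, probe averaging, the variance prior and each array left out. Some genes that the rule names are not reported here.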

Additional observations from a re-analysis of the deposited data

How the results depend on the processing

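Main counts were the 9395 genes that passed, the 3957 past 2-fold and the 4526 that passed the same way on the unshared arrays. Of 60 recomputed values, 58 lay within 1.5 times of these. The 2 others are the count past 2-fold, which was 1755 with normexp background correction and 2474 with only probes above background on all 10 arrays, where 18215 genes were tested. With no filter on dim probes the median difference of all genes was -0.196. The share of higher genes among those that passed ran from 49.6% to 54.1%. With replicate number as a block over 8 arrays the counts were 11376, 3965 and 5609, where the number stands for the slide in all groups but PRDM14. With 1 array left out, which leaves the lone array assumed to vary like the other groups, the counts ran from 6414 to 8871, from 3562 to 4106 and from 3292 to 4104. With slide as a random block they were 9313, 3826 and 5401. Without genes on chromosomes 8 and 14, an alternative chosen after seeing the data, they were 8232, 3415 and 3881. With slide as a fixed block in the second comparison, also chosen after seeing the data, 4834 genes were shared. Of 394 named genes that passed, 306 kept direction and call in every setting, of 20, in which they were tested. Some settings leave genes out, such as those on chromosomes 8 and 14. Of the named genes 2 passed in the opposite direction, Usp17la with only probes above background on all 10 arrays (-0.43, limma adjusted p = 0.0174) and Ncl with the mean over all probes (-0.39, limma adjusted p = 0.0161). With that mean Notch2 lost its call at 0.00 (limma adjusted p = 0.997), and Usp7, which had not passed, did so at -0.58 (limma adjusted p = 0.00814). The cause was not tested. In 6 lists the majority of calls turned under some setting: FGF and ERK, DNA methylation, Rhox, Wnt, oxidative phosphorylation and one-carbon metabolism. Depth of signal over background limits genes near background, where folds are bounds.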
